A study of Mus musculus with 12 samples.

Results

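Solute carriers are membrane proteins that move ions, metals, amino acids, sugars, nucleotides and other small molecules across the cell surface and the membranes of organelles. The genes described here are protein-coding genes whose symbols begin with Slc followed by a family number, a letter and a member number, and whose mean level over all 12 libraries was at least 1 CPM (counts scaled to the size of the library). Of the 52636 identifiers counted, 369 protein-coding symbols had that form, 13 of them were left out by name, 168 were under 1 CPM (56 of these had no count in any library), and 188 remained. The members were thus chosen by their measured mean level over the 12 libraries and by name, so that level is given as a description only. The 188 members were put in 3 classes by their known substrate: 41 carriers of amino acids, peptides and amines, 51 of inorganic ions and metals, and 69 of sugars, nucleotides and other organic molecules. A further 27 had no settled substrate. Of these 27, Slc9a3r1, Slc7a6os and Slc4a1ap carry the name of a neighbour or partner and are not transporters. Just inside the limit were Slc25a27 at 1.03, Slc6a9 at 1.10 and Slc26a1 at 1.16 CPM, and just outside it Slc4a3 at 0.983, Slc8a3 at 0.955 and Slc27a3 at 0.867 CPM.

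Many solute carriers use the sodium gradient, the proton gradient or the exchange of another solute to drive transport. Amino acid exchangers of the Slc7 family reach the cell surface as pairs of a light chain, which transports, and a heavy chain such as Slc3a2. Most carriers of the Slc25 family sit in the inner mitochondrial membrane, and many of Slc35 in the Golgi apparatus and endoplasmic reticulum. Slc30 and Slc39 carriers move zinc in opposite directions, out of and into the cytosol. In macrophages and microglia, carriers set the supply of amino acids, sugars and metals to cells that are stimulated, and a group of lysosomal carriers exports the products of digestion.

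RNA was sequenced from cultured primary microglia, which are the macrophages of brain tissue, of wild-type C57BL/6 mice. The cells were shaken off mixed glial cultures made from brains of pups aged 1 to 2 days and plated at 50000 per well with serum and 2.5 ng of the growth factor CSF1, so they are neonatal cells in culture. The first treated group received 5 µg of full-length neurofilament light chain (FL-NfL) and the second 5 µg of its coiled-coil part (CC-NfL), each for 24 h, and the third group received vehicle. NfL forms part of the cytoskeleton of axons and reaches the extracellular fluid after neuronal injury. Each group had 4 libraries, numbered 1 to 4, and the labels give each number a batch of its own, so that each batch held 1 library of each group. The labels do not say whether batches were separate cultures or litters, so the p-values given here cover only the spread among these libraries, which may be partly technical.

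Total counts ran from 20162427 to 31048044 per library, and members took a median of 1.45% of the counts with FL-NfL, 1.41% with CC-NfL and 1.44% with vehicle. All 188 members passed the count filter of the test across genes. The 12 microglial markers were all detected, with a summed median of 13429 CPM with FL-NfL, 15189 CPM with CC-NfL and 13724 CPM with vehicle. The same sum over 10 neuronal markers was 36.3 CPM with FL-NfL (16.4 to 48.6), 60.1 CPM with CC-NfL (26.1 to 76.9) and 80.7 CPM with vehicle (32.1 to 99.2). Over 10 astrocyte markers it was 22.4 CPM (21.7 to 32.5), 33.9 CPM (22.0 to 38.3) and 39.2 CPM (23.6 to 41.7) in the same order of groups, and over 8 endothelial markers 47.8 CPM (37.6 to 49.5) with FL-NfL, 63.4 CPM (51.0 to 73.0) with CC-NfL and 84.9 CPM (46.1 to 101) with vehicle. The astrocyte marker Gjb6 and the endothelial markers Cldn5 and Emcn had no count in any library, and 3 of the 10 neuronal, 5 of the 10 astrocyte and 4 of the 8 endothelial markers were under 1 CPM. The 10 oligodendrocyte markers summed to 262 CPM with FL-NfL, 274 CPM with CC-NfL and 274 CPM with vehicle, and the 8 fibroblast markers to under 10 CPM in every library. In bulk RNA, fewer cells of a type and less RNA per cell cannot be told apart.

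The 250 bases before the start of 5 members are shown, chosen after their values were seen, because the zinc, proton and dicarboxylate results below turn on these genes. They come from RefSeq on GRCm38.p6, on the strand of the gene, 5′ to 3′. Capitals mark matches on either strand to the core of the metal response element (TGCNCNC), bound by the zinc-sensing factor MTF1, or to the antioxidant response element (TGACNNNGC). Slc30a4 (minus strand, chr2:122702664-122702913) and Slc39a7 (minus strand, chr17:34031691-34031940) hold metal response matches only. Slc39a13 (minus strand, chr2:91070316-91070565) holds 1 metal response match and 1 antioxidant match, Slc9a7 (minus strand, chrX:20291828-20292077) 1 metal response match, and Slc25a10 (plus strand, chr11:120491587-120491836) none.
Slc30a4: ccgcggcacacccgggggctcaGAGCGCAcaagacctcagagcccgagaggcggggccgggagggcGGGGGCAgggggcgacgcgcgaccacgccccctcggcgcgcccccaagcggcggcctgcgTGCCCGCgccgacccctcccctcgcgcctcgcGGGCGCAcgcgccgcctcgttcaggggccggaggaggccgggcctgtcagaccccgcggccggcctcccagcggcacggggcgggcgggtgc
Slc39a13: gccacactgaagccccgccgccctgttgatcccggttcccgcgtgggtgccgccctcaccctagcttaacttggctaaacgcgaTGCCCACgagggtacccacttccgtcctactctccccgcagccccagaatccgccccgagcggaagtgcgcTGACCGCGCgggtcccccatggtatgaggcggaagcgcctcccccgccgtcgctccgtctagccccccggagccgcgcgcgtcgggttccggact
Slc39a7: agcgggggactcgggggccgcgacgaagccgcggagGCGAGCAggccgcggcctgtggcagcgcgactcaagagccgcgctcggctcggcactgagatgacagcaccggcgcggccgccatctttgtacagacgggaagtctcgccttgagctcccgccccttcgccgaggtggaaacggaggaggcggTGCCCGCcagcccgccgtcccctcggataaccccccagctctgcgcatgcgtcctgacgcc
Slc9a7: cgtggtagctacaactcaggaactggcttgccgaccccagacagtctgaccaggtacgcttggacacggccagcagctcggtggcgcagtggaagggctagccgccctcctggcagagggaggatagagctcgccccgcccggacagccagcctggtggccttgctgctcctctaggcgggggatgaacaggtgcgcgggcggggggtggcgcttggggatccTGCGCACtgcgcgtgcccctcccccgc
Slc25a10: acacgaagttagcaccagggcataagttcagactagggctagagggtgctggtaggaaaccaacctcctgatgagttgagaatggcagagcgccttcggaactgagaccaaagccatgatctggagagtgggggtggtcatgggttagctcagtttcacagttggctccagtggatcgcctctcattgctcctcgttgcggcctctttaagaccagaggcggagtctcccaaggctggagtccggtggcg

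Such windows were found for 142 of the 188 members. TGCNCNC was present in 11 of 23 windows of members that rose with FL-NfL, in 10 of 15 of those that fell, and in 43.8% of all 27025 windows of the table. The antioxidant motif was in 5 of 23, 2 of 15 and 10.1%, the amino acid response element (TGATGNAA) in 1 of 23, 0 of 15 and 3.53%, and the E-box CACGTG, which is the core of the lysosomal CLEAR element, in 2 of 23, 4 of 15 and 6.05%. Of the 104 windows of members not called, 45.2% held TGCNCNC and 15.4% the antioxidant motif. The amino acid response element was in 1.92% of these and the E-box in 9.62%. The zinc exporter gene Slc30a4, which fell, and the zinc importer gene Slc39a7, which rose, both carried metal response matches. Each motif was searched on both strands, and a match is a description of letters, not a bound site.

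Levels between genes were compared as CPM per kilobase of exon. By that measure the taurine carrier Slc6a6 was the highest member, at 199 ± 13.8 with FL-NfL, 205 ± 13.2 with CC-NfL and 208 ± 9.66 with vehicle (SD, n = 4 each), and its 3 groups overlapped. The next highest over all libraries were the heme carrier Slc48a1, the sugar phosphate carrier Slc37a2, the amino acid exchanger Slc7a8, the heavy chain Slc3a2, the copper carrier Slc31a2 and the lysosomal peptide and histidine carrier Slc15a3. Their means over the 12 libraries were 120, 119, 112, 109, 98.1 and 90.8 CPM per kilobase, and the order of neighbours among them is within the spread of their libraries. In the ion class the next after Slc31a2 were the copper importer Slc31a1 at 59.4 and the zinc importer Slc39a1 at 54.1 CPM per kilobase, and in the organic class the adenine nucleotide exchanger Slc25a4 at 63.9. Of the 188 members, 34 had at least 100 CPM and 35 had under 5 CPM.

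**Figure D1:**
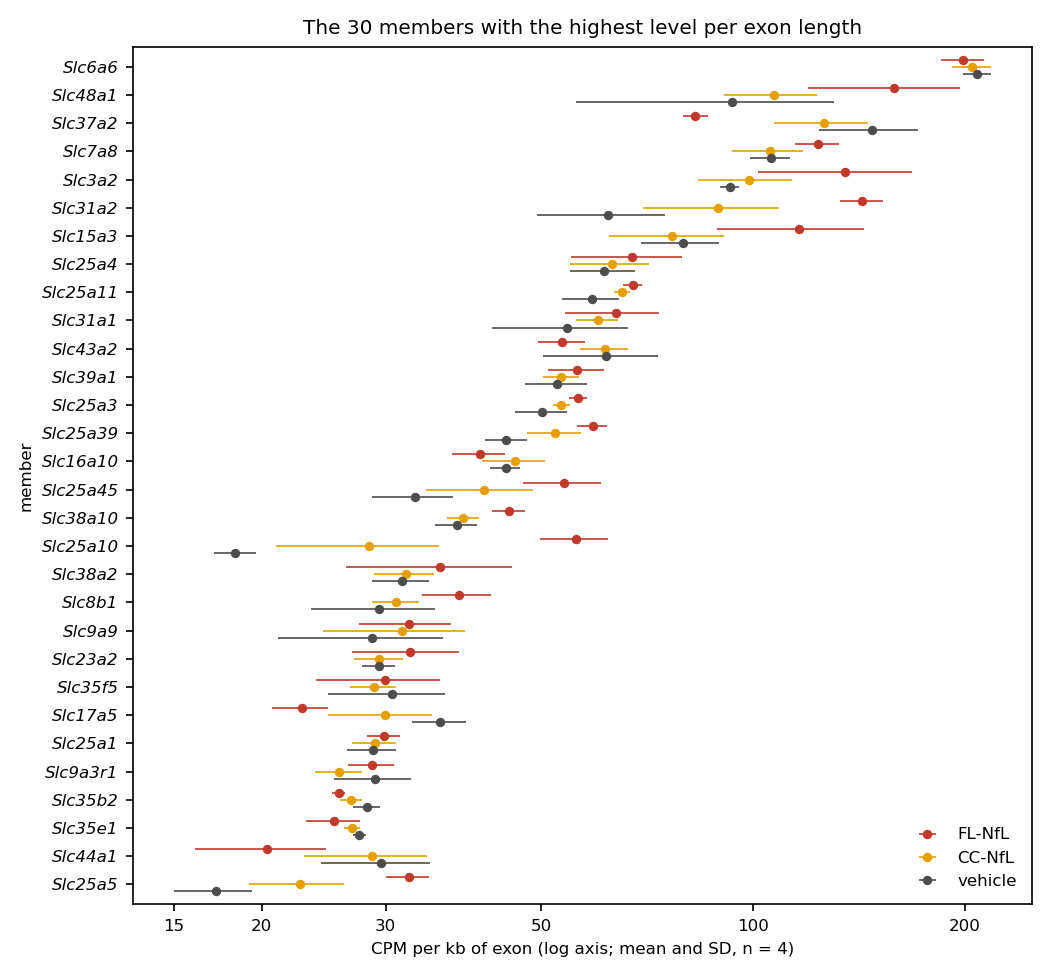
Mean level of the 30 highest members, in CPM per kilobase of exon on a log axis, with the SD over 4 libraries, in FL-NfL, CC-NfL and vehicle libraries. Slc6a6 is the highest member in every group, Slc37a2 and Slc17a5 are lower with FL-NfL than with vehicle, and Slc31a2 and Slc25a10 are higher.

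With FL-NfL, 29 of the 188 members rose and 18 fell relative to vehicle (edgeR quasi-likelihood test, Benjamini-Hochberg adjusted over all 14687 tested genes). Of all tested genes, 14% rose and 10.9% fell, so the share of members called was close to the share of all genes. The median log2 change was 0.04 over members and −0.02 over all tested genes, and with upper-quartile scaling these medians were −0.02 and −0.08. That scaling also turned the split of calls to 22 higher and 27 lower, which is 44.9% higher against 61.7% in the TMM-scaled fit. Over all tested genes the same share moved alike, from 56.4% to 45.8% (1691 higher and 2003 lower). With the batch as a block, 53 members rose and 40 fell, against 21.4% and 22.4% of all genes. All 29 rises and all 18 falls of the fit without the block were among them. The fits that leave out a library, here and below, held no batch block. In 12 fits without 1 library each, 25 of the 47 calls were lost in none, and the libraries whose omission cost most calls were FL-NfL replicate 2 (19 of 47), vehicle replicate 4 (16) and FL-NfL replicate 4 (14). Members that rose spanned log2 changes of 0.20 to 2.54, members that fell −1.58 to −0.24. All 47 had the same direction in 4 of 4 batches, and the FL-NfL and vehicle libraries did not overlap for 26 of the 29 that rose and 16 of the 18 that fell. Over all 188 members, called or not, FL-NfL libraries lay above all vehicle libraries for 30 and below them for 25, against 14.5% and 11.4% of tested genes, and 61 were higher and 52 lower in every batch, against 26.5% and 28.1%. These shares of the members were close to those of all genes. By class, 8 of 41 amino acid carriers rose and 3 fell, 6 of 51 ion and metal carriers rose and 7 fell, 12 of 69 carriers of other organic molecules rose and 8 fell, and 3 of 27 without a settled substrate rose and 0 fell. With the block the classes had 15 and 10, 12 and 8, 21 and 16, and 5 and 6 in the same order. With upper-quartile scaling the organic class had 9 higher and 15 lower, beside the 1691 and 2003 of all tested genes.

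**Figure D2:**
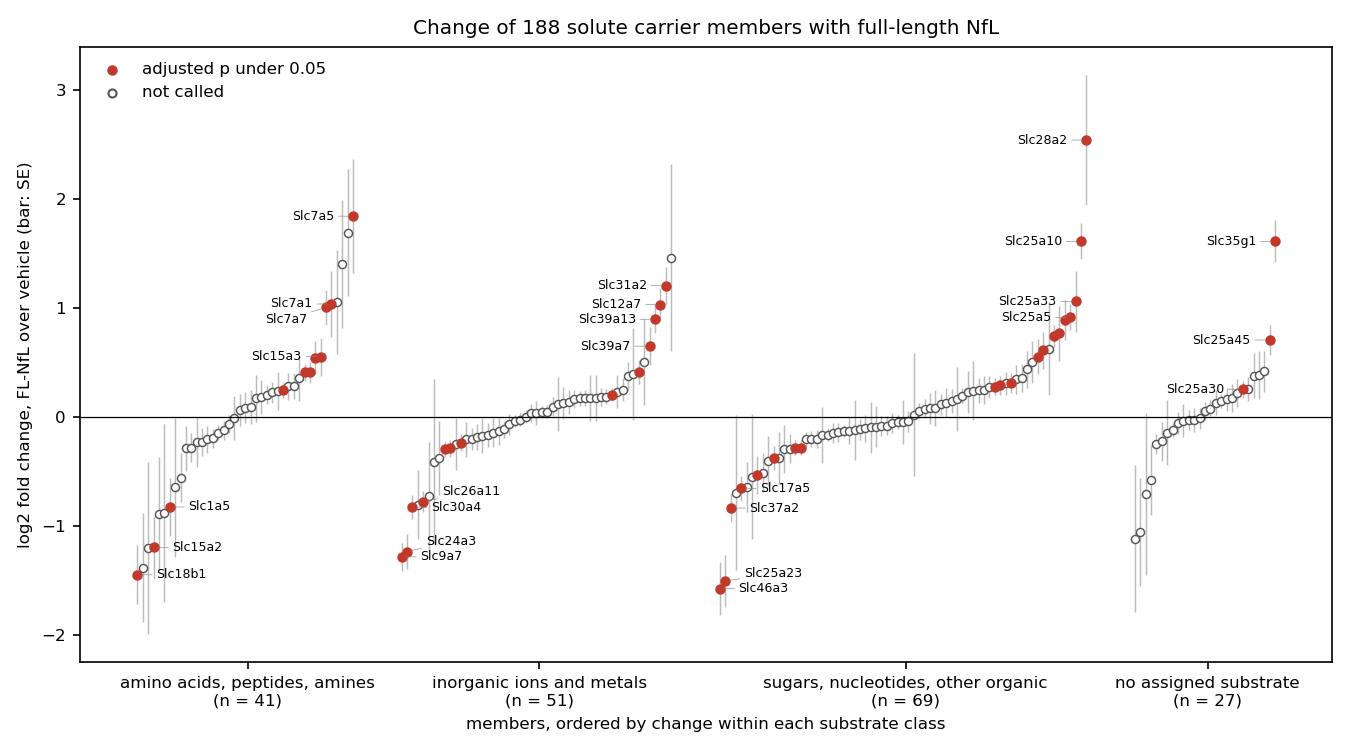
Log2 fold change of each of the 188 members, FL-NfL over vehicle, with its SE, ordered within each substrate class; filled points passed the adjusted p threshold of 0.05. Slc28a2, Slc7a5, Slc25a10 and Slc35g1 lie at the top, and Slc46a3, Slc25a23, Slc18b1, Slc9a7 and Slc24a3 at the bottom of the called members.

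Among amino acid carriers, the family of cationic and large neutral amino acid exchangers with their heavy chain (Slc3 and Slc7) held 4 of the 8 rises. Of its 7 members 4 rose and 0 fell, beside 14% and 10.9% of all tested genes. With the block 6 rose and 1 fell, beside 21.4% and 22.4% of all tested genes. Their median log2 change was 0.54, beside −0.02 over all tested genes. Further Slc7 carriers are among those left out by name. Slc7a5, the light chain of the exchanger of large neutral amino acids such as leucine, had 29.4, 108, 23.1 and 49.1 CPM in FL-NfL libraries, 11.9, 36.7, 11.0 and 25.2 CPM in CC-NfL libraries and 11.5, 19.7, 8.72 and 18.8 CPM in vehicle libraries. All 4 FL-NfL libraries lay above all 4 vehicle libraries, and replicate 2 was by far the highest of them. Its log2 change was 1.84 ± 0.52 (SE, edgeR adjusted p = 0.0239), and within batches it was 1.32, 2.43, 1.35 and 1.37. Without FL-NfL replicate 2 the change was 1.20 and the call was lost, as it was without vehicle replicate 1 at 1.74. Its heavy chain Slc3a2 had 403, 645, 388 and 469 CPM in FL-NfL libraries, 314, 414, 297 and 367 CPM in CC-NfL libraries and 326, 339, 328 and 314 CPM in vehicle libraries, so the vehicle libraries were tightly grouped and the FL-NfL libraries all above them. The change of Slc3a2 was 0.54 ± 0.15 (edgeR adjusted p = 0.0231); it was lost without FL-NfL replicate 2 (0.36), FL-NfL replicate 4 (0.56), vehicle replicate 1 (0.54) or vehicle replicate 4 (0.53).

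Slc7a1, which takes up arginine and lysine, had 54.2, 121, 57.5 and 80.0 CPM in FL-NfL libraries, 29.2, 68.9, 36.1 and 56.4 CPM in CC-NfL libraries and 29.5, 47.5, 34.2 and 41.4 CPM in vehicle libraries. FL-NfL libraries were again above vehicle libraries, with replicate 2 highest. The change was 1.03 ± 0.30 (edgeR adjusted p = 0.0269) and the call was lost without FL-NfL replicate 2 (0.74), FL-NfL replicate 4 (1.03), vehicle replicate 1 (0.93), vehicle replicate 3 (0.99) or vehicle replicate 4 (1.08). Slc7a7, which exports cationic amino acids in exchange for neutral ones, had 83.6, 127, 103 and 118 CPM in FL-NfL libraries, 49.4, 80.5, 69.2 and 74.9 CPM in CC-NfL libraries and 49.5, 51.1, 65.3 and 49.4 CPM in vehicle libraries. Its change was 1.00 ± 0.16 (edgeR adjusted p = 0.00194) and it was kept in all 12 fits that left out a library. The other members of the family were not called in this fit. Slc7a8, the other leucine exchanger light chain, had 619 ± 43.9 CPM with FL-NfL and 530.1 ± 35.1 CPM with vehicle (SD, n = 4 each). Its log2 change was 0.22 ± 0.09 (SE, edgeR adjusted p = 0.0984), and it was called higher with the batch block (edgeR block adjusted p = 0.0195). Slc7a6 was likewise called with the batch block alone among the fits tried (log2 change 0.28, edgeR block adjusted p = 0.00304). Slc7a4 (−1.38) was called lower with the block (0.000419), in DESeq2 (adjusted p = 0.0231), and without FL-NfL replicate 1 (−1.80, 0.0295), CC-NfL replicate 1 (0.0337) or CC-NfL replicate 2 (0.0454).

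**Figure D3:**
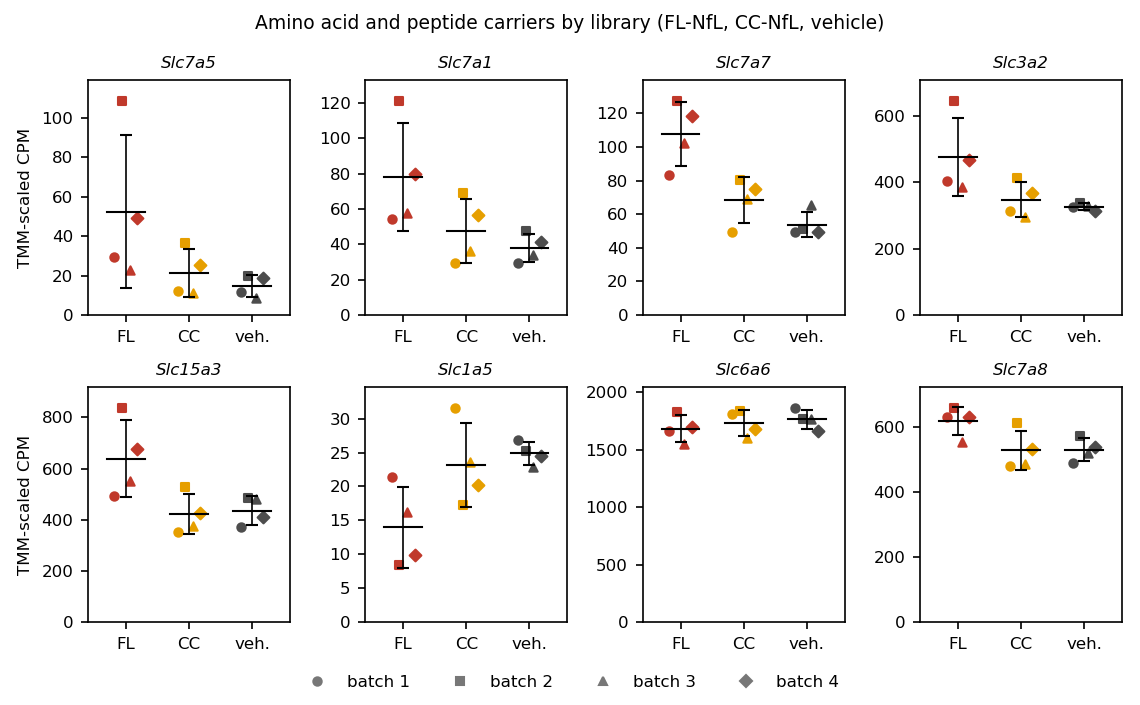
TMM-scaled CPM of 8 amino acid and peptide carriers in each library of FL-NfL, CC-NfL and vehicle, with the mean and SD of 4 libraries as bars; marker shape gives the batch. For Slc7a5, Slc7a1 and Slc3a2 the FL-NfL library of batch 2 is the highest of all 12, and for Slc1a5 the FL-NfL libraries lie below the vehicle libraries.

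Of the 3 glutamate and neutral amino acid carriers (Slc1) among the members, others being left out by name, Slc1a5 fell. This glutamine exchanger had 21.4, 8.40, 16.2 and 9.91 CPM in FL-NfL libraries, 31.5, 17.3, 23.6 and 20.2 CPM in CC-NfL libraries and 26.9, 25.2, 22.9 and 24.5 CPM in vehicle libraries, with no FL-NfL library above the lowest vehicle library. Its change was −0.83 ± 0.26 (edgeR adjusted p = 0.0394) but the call was lost in 7 of the 12 fits without a library, at −0.83 to −0.64: those without FL-NfL replicate 2 or 4, CC-NfL replicate 3 or 4, or vehicle replicate 1, 2 or 4. Slc1a4, the neutral amino acid exchanger of the same family, had 7.10, 32.7, 10.1 and 17.0 CPM in FL-NfL libraries, 3.32, 14.0, 3.36 and 10.9 CPM in CC-NfL libraries and 3.95, 7.83, 2.57 and 6.40 CPM in vehicle libraries. FL-NfL replicate 1 was below the highest vehicle library, and the change of 1.69 ± 0.58 had an adjusted p of 0.0512 in the fit without the block, 0.000158 with it, 0.0108 in DESeq2 and 0.0451 with no filter on low counts. Slc1a4 was also called without FL-NfL replicate 1 (1.95) or 3 (1.87), or any of CC-NfL replicates 1 to 3 (1.69). In a list of 9 amino acid carriers known as targets of the stress factor ATF4, chosen with earlier results of these data known, 7 were tested. Of these, 3 rose (Slc3a2, Slc7a1 and Slc7a5) and 1 fell (Slc1a5), beside 14% and 10.9% of all genes. Their median log2 change was 1.03, beside −0.02 over all genes. With the block 5 rose and 1 fell, beside 21.4% and 22.4% of all genes. The tested carriers, and those that rose with the block, included Slc6a9. Its mean was 0.753 CPM with vehicle, so it passed the level limit through the other groups and its call is only listed. Slc38a2, another carrier of that list, had 317 ± 84.2 CPM with FL-NfL and 279.6 ± 25.7 CPM with vehicle (log2 change 0.18 ± 0.15, adjusted p = 0.411).

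The remaining amino acid calls were modest except for peptide and polyamine carriers. Slc15a3 had 493, 835, 551 and 678 CPM in FL-NfL libraries, 353, 529, 376 and 427 CPM in CC-NfL libraries and 371, 484, 481 and 409 CPM in vehicle libraries. The change was 0.55 ± 0.17 (edgeR adjusted p = 0.0364). The FL-NfL libraries of Slc15a3 lay above the vehicle libraries, but the call was lost without FL-NfL replicate 2 (0.40), FL-NfL replicate 4 (0.53), CC-NfL replicate 4 (0.56), vehicle replicate 1 (0.48), vehicle replicate 2 (0.61) or vehicle replicate 4 (0.53), and with upper-quartile scaling (0.49). The proton-coupled peptide carrier Slc15a2 and the vesicular polyamine carrier Slc18b1, both under 5 CPM as a mean over 12 libraries, fell: Slc15a2 had 2.04 ± 0.877 CPM with FL-NfL and 4.72 ± 0.932 CPM with vehicle, and Slc18b1 had 1.98 ± 0.759 CPM and 5.44 ± 1.05 CPM in the same groups (SD, n = 4 each; log2 changes −1.20 ± 0.29 and −1.45 ± 0.27, edgeR adjusted p = 0.0112 and 0.00365). The mitochondrial aspartate and glutamate exchanger Slc25a12 and the mitochondrial glutathione carrier Slc25a39 rose by 0.41 each on the log2 scale, with SE of 0.10 and 0.08, and the putative amino acid carrier Slc38a10 rose by 0.24. The Slc38a10 call was lost without FL-NfL replicate 1 (0.21), FL-NfL replicate 2 (0.25), vehicle replicate 2 (0.23) or vehicle replicate 4 (0.22), with upper-quartile scaling (0.19) and with no filter on low counts (0.26).

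None of the 5 Slc6 carriers passed the threshold in the fit without the batch block. With it 2 were higher and 2 lower, beside 21.4% and 22.4% of all tested genes. The higher ones included Slc6a9, whose mean was under 1 CPM with vehicle, so its call is only listed. In DESeq2 the Slc6 counts were 1 and 1, beside 2317 and 1970 of all 14687 tested genes. The neuronal glutamate carrier Slc1a1 had 2.38, 4.46, 0.544 and 5.55 CPM in FL-NfL libraries and 3.52, 9.80, 0.683 and 9.77 CPM in vehicle libraries. Batch 3 was the lowest library of each group, so the spread between batches was larger than the difference between groups. Its edgeR adjusted p was 0.445 without the block and 0.00230 with it. The creatine carrier Slc6a8 (−0.56, adjusted p = 0.0856, with the block 0.00167) was called lower with the block, in DESeq2 (adjusted p = 0.0492) and without CC-NfL replicate 1 (0.0218). The betaine carrier Slc6a12 (1.40, adjusted p = 0.101, with the block 0.00353) was called higher with the block, in DESeq2 (adjusted p = 0.0456) and without vehicle replicate 1, where its log2 change was 2.53 (0.00290). The glutamine carrier Slc38a3 had a log2 change of −1.20 that was called with the block alone among the fits tried. Its mean was under 1 CPM with FL-NfL, so it is a member through the other groups and its value is only listed. The summed neuronal and astrocyte markers given above were lower with FL-NfL as well; their part in these changes was not tested.

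Of the 51 ion and metal carriers, the copper carrier Slc31a2, the potassium and chloride cotransporter Slc12a7 and the zinc importers Slc39a13 and Slc39a7 rose most. Slc31a2 (chr4:62262562-62298411, plus strand, GRCm38) had 277, 315, 270.2 and 299.9 CPM in FL-NfL libraries, 131, 218, 168 and 209 CPM in CC-NfL libraries and 149, 106, 149 and 102 CPM in vehicle libraries. Each FL-NfL library was above every CC-NfL and vehicle library. The change was 1.20 ± 0.17 (edgeR adjusted p = 0.00102) and within batches it was 0.89, 1.57, 0.86 and 1.56. Slc31a1, the surface copper importer, had 273 ± 41.6 CPM with FL-NfL and 233 ± 50.8 CPM with vehicle and was called only with the block (log2 change 0.23, block adjusted p = 0.0277).

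Slc12a7 (chr13:73733094-73816754, plus strand) had 173, 213, 158 and 179 CPM in FL-NfL libraries, 89.6, 156, 109.9 and 126 CPM in CC-NfL libraries and 88.5, 90.5, 98.8 and 76.6 CPM in vehicle libraries. The change was 1.03 ± 0.15 (edgeR adjusted p = 0.00123). The 2 of 11 Slc39 members that rose were Slc39a13 and Slc39a7, and 0 fell, beside 14% and 10.9% of all tested genes. Slc39a13, which moves zinc out of vesicles, had 71.1, 76.4, 54.1 and 77.3 CPM in FL-NfL libraries, 37.3, 52.5, 41.1 and 49.6 CPM in CC-NfL libraries and 42.2, 36.7, 36.3 and 34.8 CPM in vehicle libraries; its change was 0.90 ± 0.13 (edgeR adjusted p = 0.00120). Slc39a7, the zinc channel of the endoplasmic reticulum, had 12.9, 14.1, 10.8 and 12.3 CPM in FL-NfL libraries, 9.05, 12.5, 8.23 and 9.79 CPM in CC-NfL libraries and 7.99, 7.29, 10.5 and 6.22 CPM in vehicle libraries and a change of 0.65 ± 0.17 (edgeR adjusted p = 0.0181) that was lost without FL-NfL replicate 2 (0.59) or vehicle replicate 4 (0.56). Its lowest FL-NfL library lay just above its highest vehicle library.

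Of the 7 ion and metal carriers that fell with FL-NfL, 4 fell by 0.78 or more on the log2 scale: a proton exchanger, a calcium exchanger, a zinc exporter and a sulfate carrier. Slc9a7 (chrX:20105754-20291807, minus strand), a proton exchanger of the Golgi apparatus, had 11.7, 13.8, 14.2 and 13.5 CPM in FL-NfL libraries, 27.0, 22.0, 24.7 and 18.5 CPM in CC-NfL libraries and 26.6, 36.3, 31.7 and 35.0 CPM in vehicle libraries. The FL-NfL libraries were all under the lowest CC-NfL and vehicle libraries, and the change was −1.28 ± 0.13 (edgeR adjusted p = 0.000386). Slc24a3, a potassium-dependent sodium and calcium exchanger, had 7.91, 5.38, 5.65 and 6.83 CPM in FL-NfL libraries, 11.6, 9.55, 9.58 and 10.7 CPM in CC-NfL libraries and 12.5, 18.1, 13.3 and 16.9 CPM in vehicle libraries. The log2 change was −1.23 ± 0.16 (edgeR adjusted p = 0.000608). Slc30a4, which loads zinc into endosomes and lysosomes, had 19.5, 16.3, 19.8 and 18.4 CPM in FL-NfL libraries, 33.7, 25.3, 28.4 and 27.8 CPM in CC-NfL libraries and 30.2, 36.7, 29.7 and 34.8 CPM in vehicle libraries. The log2 change was −0.83 ± 0.11 (edgeR adjusted p = 0.000677). Slc26a11, a sulfate and chloride carrier of lysosomes, had 18.0, 22.3, 18.5 and 18.5 CPM in FL-NfL libraries, 30.3, 24.7, 27.8 and 24.1 CPM in CC-NfL libraries and 32.7, 31.0, 33.5 and 35.4 CPM in vehicle libraries. The log2 change was −0.78 ± 0.10 (edgeR adjusted p = 0.000551). For all 4 genes the FL-NfL and vehicle libraries did not overlap and the calls were kept in all 12 fits without a library. Smaller changes were called for the Golgi zinc exporter Slc30a5 (−0.24 ± 0.08), the mitochondrial zinc transporter Slc30a9 (0.20 ± 0.06) and the phosphate importer Slc20a1 (0.41 ± 0.11). The Slc30a5 call was lost without FL-NfL replicate 1, 2 or 4, CC-NfL replicate 4 or vehicle replicate 2, 3 or 4 (−0.24 to −0.21), that of Slc30a9 without FL-NfL replicate 2 or 4 or vehicle replicate 1 or 4 (0.18 to 0.20), and that of Slc20a1 without vehicle replicate 2 (0.40) or 4 (0.37). Slc30a9 was also not called with upper-quartile scaling (0.15) or no filter on low counts (0.22), and Slc30a5 not with no filter (−0.22) or the exon length trend removed, alone (−0.15) or with GC content (−0.18). The magnesium carrier Slc41a3 fell by 0.29 on the log2 scale, and the call was lost without FL-NfL replicate 2 (−0.26), FL-NfL replicate 4 (−0.26) or vehicle replicate 1 (−0.24), or with no filter on low counts (−0.27). Of 4 zinc buffering genes, Mt1 and Mt2, the metallothioneins, fell (−0.78 and −1.53) and 0 rose. Of the sodium pump subunits, 1 of 9 tested rose (Atp1b3, 0.38) and 0 fell, against 1 and 6 with the block. Of all tested genes 14% rose and 10.9% fell, and with the block 21.4% and 22.4%.

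In the class of sugars, nucleotides and other organic molecules the mitochondrial dicarboxylate carrier Slc25a10, which exchanges malate and succinate for phosphate, had the best separated rise. Slc25a10 (chr11:120491840-120499187, plus strand) had 214, 197, 163 and 198 CPM in FL-NfL libraries, 65.6, 118, 89.5 and 119 CPM in CC-NfL libraries and 67.2, 58.7, 67.0 and 60.6 CPM in vehicle libraries. The lowest FL-NfL library was above the highest CC-NfL library, and the change was 1.61 ± 0.17 (95% interval 1.25 to 1.97, edgeR adjusted p = 0.000386). Of all 38 Slc25 members, 8 rose and 1 fell (21.1% and 2.63%, beside 14% and 10.9% of all tested genes). With the block 14 rose and 4 fell (36.8% and 10.5%, beside 21.4% and 22.4%). The adenine nucleotide exchanger Slc25a5 had 55.2, 57.1, 52.1 and 48.6 CPM in FL-NfL libraries, 28.8, 39.0, 39.8 and 41.7 CPM in CC-NfL libraries and 29.0, 26.2, 33.1 and 24.9 CPM in vehicle libraries. Its log2 change was 0.91 ± 0.12 (edgeR adjusted p = 0.00074); it has many processed pseudogenes, so its count is uncertain here. The ATP-magnesium carrier Slc25a23, the 1 that fell, had 13.4, 6.95, 6.78 and 7.26 CPM in FL-NfL libraries, 22.0, 13.1, 16.9 and 13.6 CPM in CC-NfL libraries and 28.0, 25.3, 19.3 and 25.5 CPM in vehicle libraries. Its log2 change was −1.51 ± 0.24 (edgeR adjusted p = 0.00160).

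The purine nucleoside carrier Slc28a2 had 3.09, 7.96, 12.9 and 6.21 CPM in FL-NfL libraries, 1.03, 1.30, 4.11 and 1.38 CPM in CC-NfL libraries and 1.26, 0.545, 2.65 and 0.692 CPM in vehicle libraries, a low gene with a log2 change of 2.54 ± 0.60 (edgeR adjusted p = 0.0103). The urate carrier Slc2a9 had 28.2, 33.3, 38.5 and 32.1 CPM in FL-NfL libraries, 20.4, 22.7, 28.1 and 19.6 CPM in CC-NfL libraries and 19.2, 13.9, 24.3 and 14.0 CPM in vehicle libraries. The change was 0.89 ± 0.18 (edgeR adjusted p = 0.00572), with FL-NfL libraries above the vehicle libraries. The nucleotide exchanger of the endoplasmic reticulum Slc35b1 had 55.3, 65.3, 51.7 and 61.5 CPM in FL-NfL libraries, 38.7, 51.2, 40.1 and 41.8 CPM in CC-NfL libraries and 34.5, 35.5, 37.5 and 32.1 CPM in vehicle libraries. Its log2 change was 0.74 ± 0.10 (edgeR adjusted p = 0.000856). Of 21 Slc35 members, 5 rose and 1 fell (23.8% and 4.76%, beside 14% and 10.9% of all tested genes). But with upper-quartile scaling 4 rose and 5 fell, beside 1691 and 2003 of all 14687 tested genes. With the block 6 rose and 5 fell (28.6% and 23.8%, beside 21.4% and 22.4%). The mitochondrial pyrimidine nucleotide carrier Slc25a33 rose by 1.06, with FL-NfL libraries at 6.49, 15.3, 6.24 and 9.72 CPM and vehicle libraries at 5.21, 3.81, 4.22 and 4.88 CPM, and the call was lost without vehicle replicate 2 (0.99).

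Changes of at most 0.61 in size on the log2 scale were called for 9 further members of the class. The nucleotide sugar carriers Slc35d2 (0.61 ± 0.17) and Slc35a2 (0.27 ± 0.08), the related Slc35a4 (0.29 ± 0.09), the monocarboxylate carrier Slc16a6 (0.55 ± 0.16) and the mitochondrial acylcarnitine carrier Slc25a20 (0.31 ± 0.09) rose. All 5 of these calls were lost without FL-NfL replicate 2, at changes of 0.54, 0.27, 0.30, 0.41 and 0.28 in that order of genes. They were also lost without FL-NfL replicate 4 except for Slc35d2, and each without vehicle libraries: replicates 1 and 2 for Slc35d2, replicates 1, 2 and 4 for Slc35a2, replicates 1 and 4 for Slc35a4, replicates 2 and 3 for Slc16a6 and replicates 2 and 4 for Slc25a20. Slc35d2 was lost without FL-NfL replicate 3 and Slc35a4 without FL-NfL replicate 1 as well. Upper-quartile scaling ended the calls of Slc35a4 (0.23) and Slc25a20 (0.25), both trend corrections that of Slc35a4 (0.24 for exon length, 0.22 with GC content), and omission of the filter on low counts that of Slc35a2 (0.29). The choline carrier Slc44a1 (−0.53 ± 0.17), the glucose carrier Slc2a8 (−0.38 ± 0.11), the acetyl-CoA carrier of the endoplasmic reticulum Slc33a1 (−0.28 ± 0.07) and the nucleotide sugar carrier Slc35a5 (−0.28 ± 0.07) fell. The Slc44a1 call was lost in 8 of the 12 fits without a library, at −0.40 to −0.59, and kept only without FL-NfL replicate 1, CC-NfL replicate 1 or 2 or vehicle replicate 3; it was lost too with the exon length trend removed, alone or with GC content (−0.45 each). That of Slc2a8 was lost without FL-NfL replicate 2 (−0.34) or 4 (−0.37) or vehicle replicate 1 (−0.37) or 3 (−0.29), and with the GC and exon length trends removed (−0.21), that of Slc33a1 without vehicle replicate 4 (−0.24) or with no filter on low counts (−0.27), and that of Slc35a5 only with the exon length trend removed (−0.18) among the single changes of setting tried.

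Lysosomal carriers moved in both directions. Of the 13 tested, 2 rose and 4 fell (15.4% and 30.8%, beside 14% and 10.9% of all tested genes). With upper-quartile scaling 0 rose and 4 fell, beside 1691 and 2003 of all 14687 tested genes. The sialic acid carrier Slc17a5 had 91.1, 73.5, 85.8 and 80.2 CPM in FL-NfL libraries, 131, 89.6, 115 and 98.5 CPM in CC-NfL libraries and 146, 119.8, 125 and 130.3 CPM in vehicle libraries. The change was −0.66 ± 0.12 (edgeR adjusted p = 0.00276). Slc37a2 (chr9:37227585-37255738, minus strand) had 559, 571, 518 and 552 CPM in FL-NfL libraries, 991, 884, 693 and 789 CPM in CC-NfL libraries and 886, 1164, 822 and 1058 CPM in vehicle libraries. The change was −0.84 ± 0.13 (edgeR adjusted p = 0.00138), and it was the highest member to fall. Slc46a3 had 21.2, 14.7, 23.4 and 15.1 CPM in FL-NfL libraries, 46.3, 24.4, 49.9 and 27.0 CPM in CC-NfL libraries and 43.8, 55.2, 64.5 and 58.4 CPM in vehicle libraries. The change was −1.58 ± 0.24 (edgeR adjusted p = 0.00144), with each FL-NfL library below each vehicle library. Slc48a1, which moves heme out of the lysosome, had 539.9, 479.6, 290.3 and 435 CPM in FL-NfL libraries, 346, 288, 239 and 306 CPM in CC-NfL libraries and 407, 179.6, 229 and 210.5 CPM in vehicle libraries. Its vehicle replicate 1 lay inside the range of the FL-NfL libraries, and its change of 0.77 ± 0.25 (edgeR adjusted p = 0.0423) was lost in 8 of the 12 fits without a library, at 0.64 to 0.78: those without FL-NfL replicate 1, 2 or 4, CC-NfL replicate 2 or 4, or vehicle replicate 2, 3 or 4. It was also lost with upper-quartile scaling (0.71) and with the exon length trend removed (0.69).

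Of the members without a settled substrate, 3 rose. Slc35g1 (chr19:38395980-38405610, plus strand) had 40.4, 38.3, 22.3 and 39.5 CPM in FL-NfL libraries, 14.6, 19.6, 16.5 and 19.4 CPM in CC-NfL libraries and 14.4, 10.6, 9.40 and 11.7 CPM in vehicle libraries. The change was 1.61 ± 0.19 (edgeR adjusted p = 0.000502). The FL-NfL libraries were above all others, with replicate 3 the lowest of them. Slc25a45 had 123, 160.1, 146 and 166 CPM in FL-NfL libraries, 85.6, 132, 119 and 121 CPM in CC-NfL libraries and 85.9, 94.7, 106 and 78.4 CPM in vehicle libraries. Its log2 change was 0.70 ± 0.14 (edgeR adjusted p = 0.00484). Slc25a30 had 22.0 ± 1.77 CPM with FL-NfL and 18.5 ± 0.718 CPM with vehicle (SD, n = 4 each); its change of 0.25 ± 0.08 was lost with upper-quartile scaling, with no filter on low counts, and without FL-NfL replicate 2 (0.21), FL-NfL replicate 3 (0.24), vehicle replicate 1 (0.25), vehicle replicate 2 (0.24) or vehicle replicate 4 (0.26).

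The 7 members whose mean was under 1 CPM in a group were Slc25a18, Slc6a9, Slc38a3, Slc4a8, Slc9b2, Slc2a13 and Slc25a27, and they passed the level limit through the other groups. None of the 7 was called without the block, and 5 were with it. These were Slc6a9 and Slc9b2 higher, Slc25a18, Slc38a3 and Slc25a27 lower. They passed the limit through the groups where they were high, so these calls are listed only.

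CC-NfL was compared with the same vehicle libraries. No member was called in edgeR (0 higher and 0 lower, as 0% and 0% of all tested genes). The same held with the block (0 and 0, against 0.00681% of all genes in each direction). DESeq2 gave 0 and 0 too, against 14 and 3 of all 14687 tested genes. At an unadjusted p under 0.05, 9 members were higher and 9 lower, against 4.6% and 2.77% of all tested genes, which is 675 and 407 genes. Without CC-NfL replicate 1, Slc25a10 alone was called, at a log2 change of 0.78. The members with the smallest p were Slc25a10 at 0.63 ± 0.16 (95% interval 0.28 to 0.98, adjusted p = 0.621), Slc9a7 at −0.49 ± 0.13 (interval −0.77 to −0.21) and Slc24a3 at −0.55 ± 0.15 (interval −0.88 to −0.22). The CC-NfL changes of the 29 members that rose with FL-NfL spanned −0.05 to 0.63 and those of the 18 that fell −0.60 to −0.04; the comparisons share the vehicle libraries. For Slc7a5 the CC-NfL change was 0.54 ± 0.51 with an interval of −0.58 to 1.66, whose upper bound is above the median rise of 0.70 among members called with FL-NfL.

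Between the NfL forms, 5 members were higher with FL-NfL than with CC-NfL and 5 were lower (1.38% and 1.34% of all tested genes). With the block the counts were 25 and 21, against 8.99% and 10.1% of all genes. In DESeq2 they were 14 and 10, against 728 and 579 of all 14687 tested genes. Higher with FL-NfL were Slc25a10 (log2 change 0.98 ± 0.16, edgeR adjusted p = 0.0140), Slc35g1 (1.00 ± 0.19, 0.0232), Slc39a13 (0.63 ± 0.13, 0.0336), Slc35b1 (0.44 ± 0.10, 0.0417) and Slc25a5 (0.51 ± 0.12, 0.0451). Lower were Slc9a7 (−0.79 ± 0.13, 0.0138), Slc30a4 (−0.64 ± 0.11, 0.0150), Slc26a11 (−0.47 ± 0.10, 0.0304), Slc37a2 (−0.61 ± 0.13, 0.0341) and Slc24a3 (−0.68 ± 0.16, 0.0423). For all 10, the FL-NfL and CC-NfL libraries listed above did not overlap; over all members FL-NfL libraries lay above those of CC-NfL for 17 and below for 9, against 7.46% and 5.02% of tested genes. The call of Slc24a3 was also lost with upper-quartile scaling (−0.71) and with no filter on low counts (−0.67), and that of Slc35b1 with the trend of exon length removed, alone (0.39) or with GC content (0.39). All 10 calls were lost without FL-NfL replicate 4, 9 of 10 without FL-NfL replicate 2, 7 without CC-NfL replicate 1, 6 without CC-NfL replicate 3, 5 without CC-NfL replicate 4, and 1 to 4 without other libraries except vehicle replicate 3. Calls over all tested genes also fell without FL-NfL replicate 4, from 202 higher and 197 lower to 15 and 22. Over the 12 fits the change lay between 0.84 and 1.09 for Slc25a10, −0.69 and −0.54 for Slc30a4, and −0.88 and −0.70 for Slc9a7. Of the 41 amino acid carriers, 0 were called between the forms in the edgeR fit without the block. With the block 9 were higher with FL-NfL and 5 lower (22.0% and 12.2%, beside 8.99% and 10.1% of all genes). In DESeq2 the amino acid class had 3 and 1, beside 728 and 579 of all 14687 tested genes. Slc7a5 had 1.30 ± 0.51 (edgeR adjusted p = 0.166, with the block 0.00101) and Slc7a7 had 0.65 ± 0.16 (0.0553, with the block 0.00395).

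**Figure D4:**
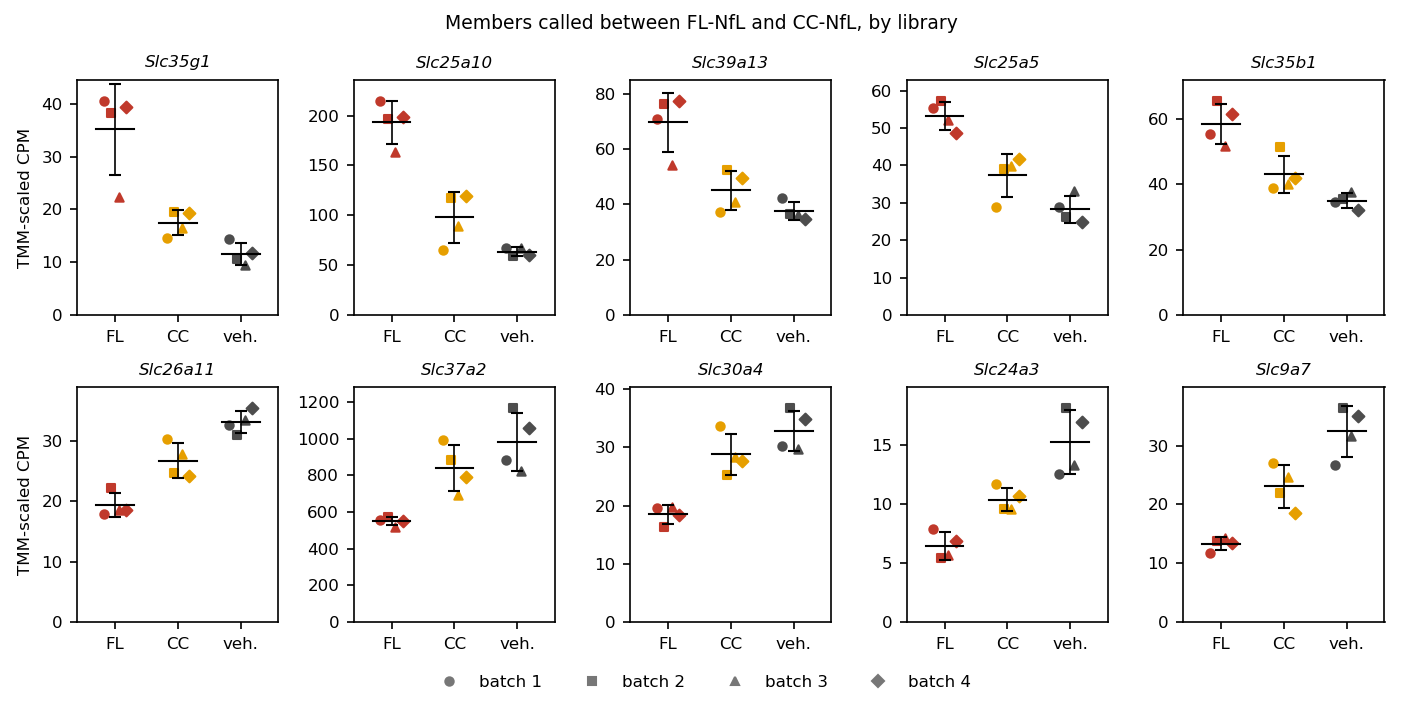
TMM-scaled CPM of the 10 members called between FL-NfL and CC-NfL in each library, with mean and SD of 4 libraries; marker shape gives the batch. In each panel the FL-NfL libraries stand apart from the CC-NfL libraries.

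Batch was as large a source of spread as treatment for many members. The median share of the variance of a member's log2 level was 32.6% for treatment and 38.6% for batch (30.2% and 34.2% over all tested genes). Batch exceeded treatment in 104 of 188 members, and in 7896 of all 14687 tested genes. The shares are not corrected for the number of levels, 4 for batch and 3 for treatment, which favours batch. The lysosomal amino acid exporter Slc36a1 had 95.0% of its variance between batches, against 0.0159% between treatments. The amino acid class had the largest median batch share, at 49.8%. Within batches, the FL-NfL differences from vehicle were larger in batches 2 and 4 than in batches 1 and 3 for 44 of the 47 called members by the mean of each pair. The same count was not made over all tested genes, so it cannot be read as particular to the members. The 47 members also share the same libraries and are not separate measures of a batch. Slc7a5 gave 1.32, 2.43, 1.35 and 1.37, Slc25a33 0.29, 1.87, 0.51 and 0.93 and Slc1a5 −0.32, −1.53, −0.48 and −1.26 in batches 1 to 4.

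**Figure D5:**
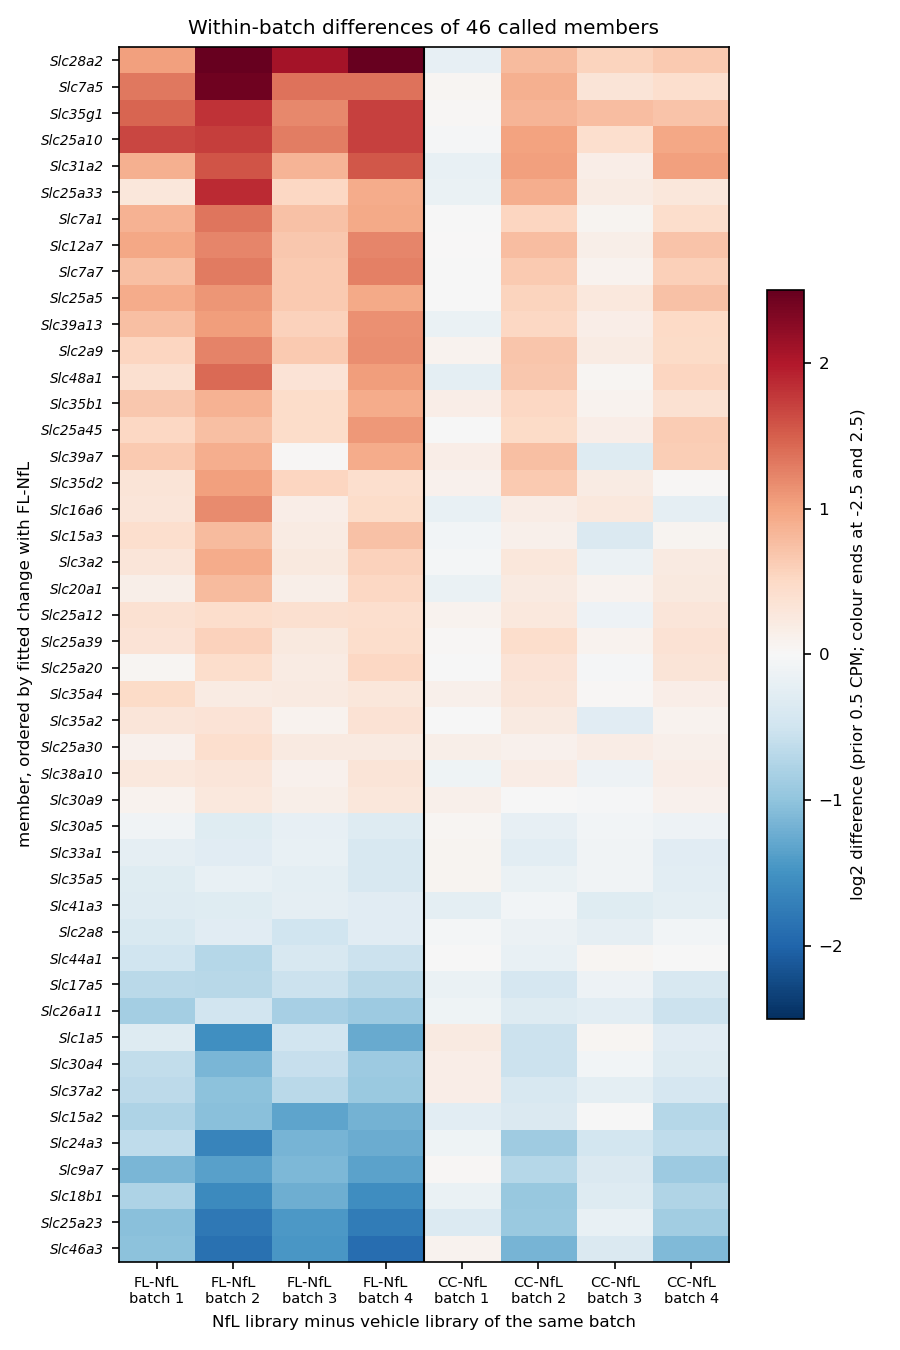
Log2 difference from the vehicle library of the same batch, for FL-NfL and CC-NfL in each of 4 batches, for 46 of the 47 members called with FL-NfL (rows); the colour scale ends at −2.5 and 2.5. FL-NfL columns keep 1 direction for every row, and CC-NfL columns are paler, batch 1 most of all.

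Related genes were counted beside the members. A list of 37 genes covered lysosomal amino acid sensing and mTORC1, the kinase complex that reads amino acid supply. Of these, 8 rose and 5 fell with FL-NfL (21.6% and 13.5%, beside 14% and 10.9% of all genes). With upper-quartile scaling 5 rose and 6 fell, beside 1691 and 2003 of all 14687 tested genes. The smallest p belonged to Sec13 (0.53), Akt1s1 (0.40) and Sesn3 (−0.90). Of 4 tested organic anion transporting polypeptides, 2 rose and 1 fell (50% and 25%). With the block 2 rose and 2 fell, and of all tested genes 21.4% rose and 22.4% fell in that fit. The 1 that fell without the block was Slco2b1 at −4.30 (edgeR adjusted p = 0.000386). Of the 13 solute carriers left out, 5 rose and 1 fell (38.5% and 7.69%), among them the divalent metal carrier Slc11a2 at 0.97. With the block 5 of these 13 rose and 5 fell (38.5% in each direction). Of 6 tested partner chains of carriers, 2 rose (Bsg, the partner of monocarboxylate carriers, 0.24, and Slc3a2) and 1 fell (Nptn, −0.42). These are 33.3% and 16.7%, and with the block 2 rose and 3 fell. Of 9 tested regulators of cation and chloride cotransport, 1 fell (Klhl3, −2.35) and 0 rose (11.1% and 0%), against 2 lower and 2 higher with the block.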

How the data were processed

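The authors deposited unnormalized counts of reads for each Ensembl gene in 12 libraries; per the submitters' processing notes, reads were aligned with GSNAP to GRCm38. Not given in the sources used here are the aligner's version and the counting tool with its annotation and strand setting. Per the labels' protocols, a stranded kit for mRNA was used, with single reads of 50 bases. Symbols, coordinates and exon lengths come from GENCODE M21, which may differ from the annotation used for counting; 99.6% of identifiers had a symbol.

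Genes were filtered with filterByExpr (14687 kept, with 99.9% of the counts), scaled by TMM and fitted with edgeR 4.0.16 (R 4.3.3) in 1 quasi-likelihood model of 3 groups with 9 residual degrees of freedom. The p-values of two-sided F tests received Benjamini-Hochberg adjustment across all 14687 genes, and those under 0.05 after it were called. Levels are TMM-scaled CPM, and SE values come from the F statistic. Within-batch differences use a prior of 0.5 CPM. The fit was tested on simulated data. Alternatives were other scalings, DESeq2 1.42.0, no filter, the batch block, trends of exon length and GC content (the GC trend chosen after seeing the data), and omission of libraries.

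Libraries of the same number, which the labels place in 1 batch, deviated together (r of 0.31 to 0.73, 12 of 12 pairs over 0.1). Libraries of different number had r of −0.46 to 0.44, with 8 of 36 pairs over 0.1, so the ranges overlap. The numbers were taken to pair the samples in the block. The members, classes and gene lists were chosen with earlier results of these data known. Named members are the largest called changes of at least 5 CPM with 1 direction in all 4 batches (up to 4 rises and 4 falls per class, 3 and 3 between the NfL forms), the 3 highest per class by CPM per kilobase, called members of unsettled substrate, and the neighbours of the level limit. The other called members except 1, which is not reported here, and a few amino acid carriers were named after their values were seen.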

Additional observations from a re-analysis of the deposited data

Results flagged for a closer look

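Among 62 named members and 3 groups of 4 libraries each, 186 sets of 4 values were examined, and in 14 of them 1 library stood far from the other 3. Chance alone gives about 1 such set in 20. Of the 14, 6 were FL-NfL libraries, 2 CC-NfL libraries and 6 vehicle libraries.

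In FL-NfL libraries, the ATP-magnesium carrier Slc25a23 was high in replicate 1 at 13.4 CPM (others 6.78 to 7.26), the sulfate carrier Slc26a11 was high in replicate 2 at 22.3 CPM (18.0 to 18.5), and the mitochondrial glutathione carrier Slc25a39 was high in replicate 2 at 175 CPM (158 to 160.1). Slc35g1 was low in replicate 3 at 22.3 CPM (38.3 to 40.4), the nucleotide sugar carrier Slc35a5 was low in replicate 1 at 67.0 CPM (73.7 to 75.0), and the glutamine carrier Slc38a3 was low in replicate 3 at 0.0419 CPM (1.00 to 1.12). In CC-NfL libraries, the nucleoside carrier Slc28a2 was high in replicate 3 at 4.11 CPM (1.03 to 1.38) and the creatine carrier Slc6a8 was high in replicate 1 at 79.0 CPM (40.1 to 43.8). In vehicle libraries, Slc6a8 was high in replicate 1 too, at 85.6 CPM (50.8 to 54.9). The other vehicle libraries that stood apart were those of the exchanger Slc7a7 at 65.3 CPM in replicate 3 (49.4 to 51.1), the UDP-galactose carrier Slc35a2 at 29.8 CPM in replicate 3 (25.3 to 25.9) and Slc7a4 at 5.86 CPM in replicate 1 (2.59 to 2.89), all high. The zinc exporter Slc30a5 was low in replicate 1 at 141 CPM (172 to 172), and Slc7a6 was low in replicate 3 at 31.7 CPM (42.4 to 44.6).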

How the results depend on the processing

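The batch block gave 53 members higher and 40 lower with FL-NfL against vehicle, beside 3148 and 3284 of all 14687 tested genes. Against CC-NfL it gave 25 higher and 21 lower, beside 1321 and 1485 of all tested genes. DESeq2 gave 14 higher and 10 lower between the NfL forms, against 728 and 579 of all 14687 tested genes. Leaving out 1 library at a time gave 16 to 35 members higher and 13 to 23 lower with FL-NfL against vehicle. All tested genes gave 1392 to 2349 higher and 992 to 1735 lower in these fits. Against CC-NfL, 0 to 10 members were higher and 0 to 10 lower, beside 14 to 324 and 18 to 277 of all tested genes. With CC-NfL against vehicle, 0 to 1 members were higher and 0 lower, beside 0 to 18 and 0 to 8 of all tested genes. Leaving out FL-NfL replicate 4 and vehicle replicate 2 together gave 12 members higher and 10 lower with FL-NfL against vehicle. Between the NfL forms it gave 0 and 0. All tested genes gave 793 and 544, and 5 and 9, in the same order of comparisons. The cause was not tested, except that fits without libraries hold fewer samples and were made without the batch block. Over the 62 named members and 20 alternatives, no called change turned its sign; with FL-NfL against vehicle 1071 values kept their side of the threshold, 143 lost a call and 26 gained one. Limiting the members to at least 5 CPM gave 28 higher and 16 lower with FL-NfL against vehicle, beside 29 and 18 of all 188 members. The lowest library total was 20162427 counts.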

Other observations

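With the batch as a block, 46 members were called with FL-NfL against vehicle that were not called by edgeR without it, in addition to the 47 called in both fits. Of the 46, the 6 outside the amino acid class with the smallest block adjusted p in edgeR are given here, chosen after their values were seen. Lower with FL-NfL were Slc35f1, of unsettled substrate (log2 change −1.06, block adjusted p = 0.000552), the monocarboxylate carrier Slc16a7 (−0.41, 0.000823), Slc22a17 (−0.58, 0.00209) and Slc22a23 (−0.71, 0.00252). Higher were the mitochondrial ATP-magnesium carrier Slc25a24 (0.31, 0.00164) and Slc45a4 (0.43, 0.00219). The log2 changes are from the fit without the block. All 6 changed in the same direction in both fits.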
